A study of Homo sapiens with 9 samples.

Results

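RUNX1, RUNX2 and RUNX3, the 3 RUNX transcription factors of the human genome, and CBFB, their common partner, were followed through 9 RNA sequencing libraries of SW480 cells. These 4 genes were chosen by name among the 63677 Ensembl gene identifiers of the count files. All 4 were among the 16593 genes tested in at least 1 comparison. They and the gene lists below were chosen with earlier results of these data known. Counts of calls among them, set beside the share of all genes, are therefore a description. SW480 is a cell line from a human colon adenocarcinoma. The study compared 3 lines with 3 libraries each, to see how the transcriptome of these cells differs when they express BASP1, a protein anchored to membranes that can also act as a transcriptional corepressor. The first was parental SW480, untransduced and without a vector. SW480-B was nucleofected with the vector pcDNA3-BASP1, in which the cytomegalovirus promoter drives the BASP1 coding sequence, was selected with G418, and was grown from 1 cell clone. SW480-gRNA-B-all received 3 lentiviruses in turn, for MS2-P65-HSF1, for the transactivator dCas9-VP64-GFP and for pooled sgRNAs against the BASP1 promoter. Its precursor was cloned from single cells after the dCas9 step, and it was selected with hygromycin B and puromycin. The labels give BASP1 activation as the treatment of all 9 samples, parental cells included. BASP1 expression is thus not the only difference between the lines, and BASP1, the vectors, the selection and the cloning cannot be told apart.

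RUNX proteins bind DNA through the Runt domain, and CBFB, which does not bind DNA itself, joins that domain and makes the binding tighter and the RUNX protein more stable. RUNX1 is known for its part in the formation of blood stem cells, RUNX2 for bone and cartilage, and RUNX3 for T lymphocytes, sensory neurons and the gut, where it has been studied as a tumor suppressor. Each RUNX gene has a distal and a proximal promoter, so that 2 kinds of mRNA arise from 1 gene, and counts per gene do not separate them.

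RUNX genes can be bound by RUNX proteins at their own promoters, and the promoter sequences are therefore shown here. RefSeq promoters (assembly GRCh38.p14, from 250 bases before to 50 after a start) were held for 3 of the 4 genes, 2 each for RUNX2 and RUNX3 and 1 for RUNX1. CBFB was not in the table. Capitals mark the RUNX motif TGTGGT, which reads ACCACA when it lies on the other strand, and its form TGCGGT, which then reads ACCGCA. The copies do not overlap each other in these sequences. The distal promoters, those further upstream, are shown. That of RUNX2 is at chr6:45328080-45328379 on the plus strand and that of RUNX3 at chr1:24964961-24965260 on the minus strand, both 5′ to 3′ along the gene.
RUNX2 distal promoter: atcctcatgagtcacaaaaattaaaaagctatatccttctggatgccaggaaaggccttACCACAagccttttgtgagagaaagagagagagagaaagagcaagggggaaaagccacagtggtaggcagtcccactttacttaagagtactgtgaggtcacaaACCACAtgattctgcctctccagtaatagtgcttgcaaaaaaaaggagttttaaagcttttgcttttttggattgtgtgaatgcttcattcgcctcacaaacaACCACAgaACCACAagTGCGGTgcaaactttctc
RUNX3 distal promoter: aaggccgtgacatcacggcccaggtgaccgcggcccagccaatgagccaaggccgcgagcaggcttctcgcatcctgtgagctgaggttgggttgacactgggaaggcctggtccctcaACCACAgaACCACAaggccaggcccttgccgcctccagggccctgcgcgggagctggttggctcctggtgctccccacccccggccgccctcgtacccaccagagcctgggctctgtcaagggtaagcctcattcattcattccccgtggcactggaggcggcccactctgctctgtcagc
The RUNX2 sequence holds 4 copies of TGTGGT, each on the other strand, at -191, -87, 17 and 25 from the start, and 1 copy of TGCGGT at 33. The RUNX3 sequence holds 2 copies of TGTGGT at -131 and -123. Over 35116 RefSeq promoters of this length, 13.07% hold TGTGGT at least once and 1.307% at least 2 times, and 5 promoters hold it at least 4 times. TGCGGT is in 7.293% of them. The RUNX2 and RUNX3 proximal promoters and the 1 RUNX1 promoter at hand hold neither form. The other promoter of RUNX1 was not at hand and was not read. None of the 5 sequences holds CTTTGA, the letters of the TCF/LEF motif, or TCAAAG, its reading on the other strand, which 12.92% of promoters hold. A match of letters is a description and does not show that a protein binds there.

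The libraries held 25238831 to 29355669 counts on genes, and a count of 0 allows up to 3 counts, or 0.1 to 0.116 CPM, a unit in which counts are scaled to the size of the library (by TMM over the 9 libraries). These limits cover counting error only. BASP1 was at 0.691 to 11.9 CPM in SW480, 250.3 to 268 CPM in SW480-B and 167 to 303.4 CPM in SW480-gRNA-B-all. The cells were epithelial by their markers, but not every colon marker was high. The 10 colon epithelium markers summed to 6331 to 11360 CPM in each library. The largest were the keratins KRT8 (3547 to 6212 CPM), KRT18 (1653 to 3575 CPM) and KRT19 (510 to 1446 CPM). EPCAM was at 281 to 751 CPM. CDX1 (0 to 0.620 CPM) and KRT20 (0.0339 to 0.896 CPM) were low in every library. The 10 blood cell markers summed to 1.79 to 6.11 CPM and the 8 fibroblast markers to 2.90 to 10.9 CPM. The 8 osteoblast and chondrocyte markers summed to 0.620 to 5.74 CPM. Of the epithelial markers, CDH17 had 0 counts in SW480-B and SW480-gRNA-B-all. CDX2 fell by 3.28 on the log2 scale in SW480-gRNA-B-all from SW480 (adjusted p = 0.0090). From SW480-B it fell by 4.12 (adjusted p = 0.00099). The log2 fold change of VIL1 from SW480 was -4.44 (adjusted p = 0.019) in SW480-gRNA-B-all and -2.935 (adjusted p = 0.025) in SW480-B. The part of these changes in the RUNX values was not tested. Replicates 2 and 3 of SW480-gRNA-B-all were closer to each other than any other pair of replicates, with 1.6% of genes more than 2-fold apart against 11.5% to 32.5%, and a median chi-square of 0.882 against 9.24 to 30.4. Calls that rest on this line are therefore given with these libraries apart and with their counts summed, which left 0.577% of tested genes called against SW480 and 2.73% against SW480-B. With them summed, CDX2 was called against SW480-B (adjusted p = 0.0053) but not against SW480 (0.0502), nor was VIL1 (0.079). It is not stated whether replicates came from separate cultures, so p-values measure only the spread between these samples, which may be technical. In RNA from bulk cells, fewer cells that express a gene and less RNA per cell cannot be told apart.

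All of the adjusted p-values below come from edgeR's quasi-likelihood test over all genes tested in a pair of lines, with Benjamini-Hochberg adjustment. Genes that combined an adjusted p under 0.05 with more than a 2-fold difference were called. Fold changes are log2 values of the first line named over the second. Where 3 values are given for the lines in turn, parental SW480 comes first, SW480-B follows and SW480-gRNA-B-all is last.

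RUNX2, the regulator of bone formation, lay above the parental cells in one of the lines made to express BASP1 and below them in the other, and the difference between these lines passed the test. In SW480 it had 24.6, 70.8 and 76.4 CPM in replicates 1, 2 and 3, in SW480-B 199.9, 148.5 and 94.8 CPM, and in SW480-gRNA-B-all 20.4, 19.5 and 19.8 CPM. Every SW480-B library was above every SW480 library, and every SW480-gRNA-B-all library was below, although replicate 1 of SW480 stood far below the other parental libraries and close to SW480-gRNA-B-all.

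Between SW480-gRNA-B-all and SW480-B, RUNX2 was 7.44-fold lower in SW480-gRNA-B-all (log2 fold change -2.90, standard error 0.27, 95% interval -3.52 to -2.27, adjusted p = 0.0014). In these 2 lines BASP1 itself did not pass the test (log2 fold change -0.03, 95% interval -0.58 to 0.52, adjusted p = 0.95). The study reports a shorter BASP1 transcript from the vector than from the endogenous gene. Like counts of BASP1 thus need not mean like numbers of transcripts. The study itself judged BASP1 comparable between these lines, as mRNA on a Northern blot and as protein by immunoblot. Only 1.34% of the tested genes had a lower log2 fold change than RUNX2 in this comparison. The call held in each of the 6 fits that left out 1 library (log2 fold change -3.13 to -2.61, largest adjusted p = 0.013) and with the alike replicates summed (adjusted p = 0.0092). CDX2, an intestinal homeobox factor, had its means in the same order as RUNX2, at 34.3, 61.4 and 3.53 CPM in the lines in turn, and its part in the RUNX2 values was not tested.

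Against SW480, neither difference of RUNX2 was called. RUNX2 was 2.89-fold lower in SW480-gRNA-B-all by the fit (log2 fold change -1.53, standard error 0.40, 95% interval -2.48 to -0.58, adjusted p = 0.063). In SW480-B its log2 fold change was 1.40 (standard error 0.45, 95% interval 0.38 to 2.42, adjusted p = 0.19), which 96.65% of the tested genes lay below, and no alternative called it (smallest adjusted p = 0.056). The first of these differences depended on the parental replicate with little RUNX2: without replicate 1 of SW480 it was -1.88 (adjusted p = 0.0065), and DESeq2 (adjusted p = 0.0049) and edgeR on the 9 libraries together (adjusted p = 0.036) called it too.

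**Figure D1:**
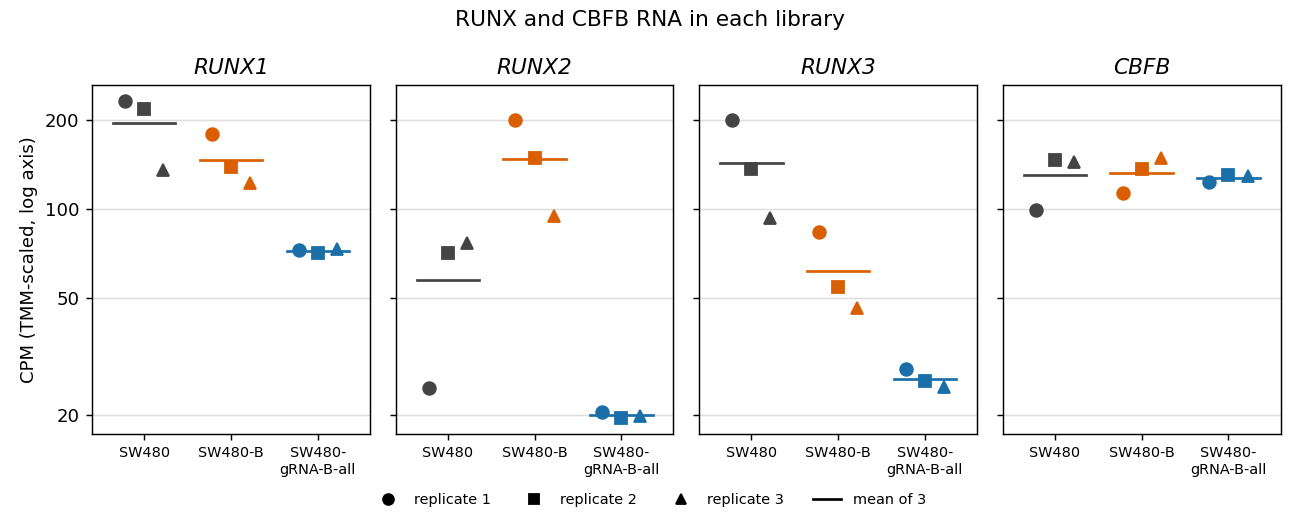
RUNX1, RUNX2, RUNX3 and CBFB RNA in each of the 9 libraries, as CPM on a log axis, with 1 marker shape per replicate number and a line at the mean of 3. The SW480-gRNA-B-all points lie below those of both other lines for the RUNX genes and among them for CBFB, and replicate 1 of SW480 (24.6 CPM of RUNX2) lies close to SW480-gRNA-B-all.

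RUNX3, the RUNX gene most often studied in the gut epithelium, was highest in the parental cells and lowest in SW480-gRNA-B-all, with SW480-B between them. Its CPM in replicates 1, 2 and 3 was 200.9, 137 and 93.1 in SW480, 83.8, 54.5 and 46.2 in SW480-B, and 28.55, 26.0 and 24.8 in SW480-gRNA-B-all. No library of one line reached into the range of another, and replicate 1 was the highest of its line in each case.

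RUNX3 fell from SW480 to SW480-gRNA-B-all by 2.45 on the log2 scale (standard error 0.29, 95% interval -3.14 to -1.76, adjusted p = 0.0094), or 5.46-fold by the fit, and 3.61% of the tested genes had a lower value. It fell by 1.22 from SW480-B to SW480-gRNA-B-all (standard error 0.24, 95% interval -1.77 to -0.68, adjusted p = 0.019). With the alike replicates summed, neither difference was called (adjusted p = 0.057 and 0.089). The call against SW480 was also lost without SW480 replicate 2 (adjusted p = 0.061) or without SW480-gRNA-B-all replicate 1, 2 or 3 (0.052, 0.059 and 0.060). That against SW480-B was lost without SW480-B replicate 1, where the change was under 2-fold (log2 fold change -0.93), without SW480-B replicate 2 (adjusted p = 0.055), and without SW480-gRNA-B-all replicate 2 or 3 (0.085 and 0.091).

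Between SW480-B and SW480, the log2 fold change of RUNX3 was -1.19 (standard error 0.34, 95% interval -1.97 to -0.41, adjusted p = 0.16), which was not called. Here libraries with the same replicate number deviated together, and with the number as a block the value was -1.16 and RUNX3 was called (adjusted p = 0.028), as 1.98% of the tested genes were. DESeq2 called it too (-1.20, adjusted p = 0.034), and so did the fits with no filter on low counts (-1.20, adjusted p = 0.019) and without SW480 replicate 3 (-1.42, adjusted p = 0.039).

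RUNX1, the regulator of blood stem cell formation, was lowest in SW480-gRNA-B-all, and the other lines overlapped each other. Its CPM in replicates 1, 2 and 3 was 233, 219 and 135 in SW480, 179.7, 138 and 123 in SW480-B, and 72.7, 70.7 and 73.1 in SW480-gRNA-B-all. The SW480-gRNA-B-all libraries differed from each other by less than any other line's, with a standard deviation of 1.79% of the mean, against 27.0% in SW480 and 19.9% in SW480-B.

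RUNX1 fell by 1.45 on the log2 scale from SW480 to SW480-gRNA-B-all (standard error 0.23, 95% interval -1.98 to -0.91, adjusted p = 0.018) and by 1.03 from SW480-B (standard error 0.18, 95% interval -1.45 to -0.62, adjusted p = 0.012). In SW480-B its log2 fold change from SW480 was -0.38 (standard error 0.28, 95% interval -1.01 to 0.25, adjusted p = 0.55). With the alike replicates summed, the adjusted p was 0.092 against SW480 and 0.074 against SW480-B. Against SW480 the call was lost without SW480 replicate 2 (adjusted p = 0.089) or SW480-gRNA-B-all replicate 1, 2 or 3 (0.072, 0.098 and 0.095), and against SW480-B it was lost without SW480-B replicate 1 (log2 fold change -0.86) or SW480-gRNA-B-all replicate 2 or 3 (adjusted p = 0.076 and 0.071).

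CBFB, the partner of all of the RUNX proteins, did not pass the test in any comparison. Its CPM in replicates 1, 2 and 3 was 99.5, 146 and 145 in SW480, 113, 136.5 and 149.6 in SW480-B, and 123, 130.4 and 129 in SW480-gRNA-B-all. The ranges overlapped in all 3 comparisons, and replicate 1 was the lowest of its line each time.

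Against SW480, the log2 fold change of CBFB was -0.04 in SW480-gRNA-B-all (95% interval -0.47 to 0.40, adjusted p = 0.91) and 0.07 in SW480-B (95% interval -0.48 to 0.61, adjusted p = 0.92). Between the BASP1-expressing lines it was -0.06 (95% interval -0.42 to 0.30, adjusted p = 0.84). The intervals leave out a change of 2-fold in either direction.

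Thus 2 of the 4 members were called in SW480-gRNA-B-all against SW480, both lower, where 6.55% of all tested genes were called. The CPM ranges of 3 members did not overlap there, as for 38% of the tested genes. DESeq2 called 3 members, and 13% of the genes. In SW480-B against SW480, edgeR called 0 of 4 members and 1.34% of the genes. At an unadjusted p under 0.05, 2 members (RUNX2 and RUNX3) and 15.8% of the genes passed, and DESeq2 called 1 member and 5.92% of the genes. The ranges of 2 members did not overlap, as for 22.4% of the genes. In SW480-gRNA-B-all against SW480-B, 3 of 4 members were called, all lower, as were 6.68% of the genes in either direction. The ranges of 3 members did not overlap (30.4% of the genes), and DESeq2 called 3 members (9.13% of the genes). With the alike replicates summed, 0 of 4 members were called against SW480 and 1 of 4, RUNX2, against SW480-B. The comparisons share libraries, SW480 in the first 2 and SW480-gRNA-B-all in the first and the last, so that their values are not independent of each other. The members were also chosen with earlier results of these data known, so these counts beside the shares of all genes are a description.

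**Figure D2:**
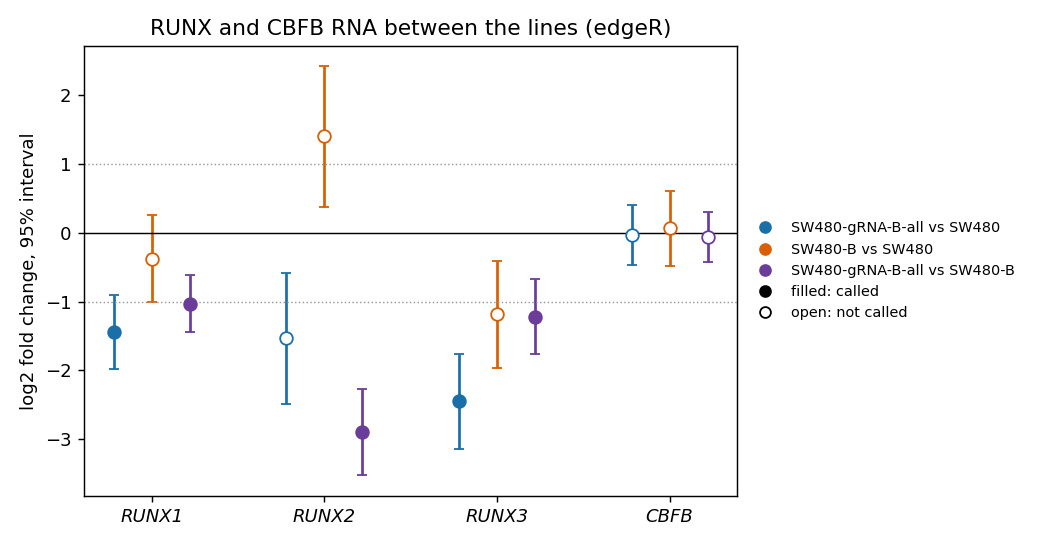
Log2 fold changes (y axis) with 95% intervals of RUNX1, RUNX2, RUNX3 and CBFB in the 3 comparisons, from edgeR. Filled points were called and open points were not, and dotted lines mark a 2-fold change. RUNX2 is at 1.40 in SW480-B and at -1.53 in SW480-gRNA-B-all, and CBFB is near 0 throughout.

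The RUNX genes were set beside each other per kb of exon (15.57 kb for RUNX1, 8.19 kb for RUNX2, 4.92 kb for RUNX3 and 4.65 kb for CBFB, counting every annotated exon, which longer untranslated ends make uneven). In SW480 the mean level was 29.2 ± 11.03 CPM per kb for RUNX3, 28.0 ± 5.73 for CBFB, 12.6 ± 3.40 for RUNX1 and 6.99 ± 3.47 for RUNX2 (SD, n = 3). The ranges of RUNX3 and CBFB overlapped, as did those of RUNX1 and RUNX2, and the lowest RUNX3 library lay above the highest RUNX1 library. In SW480-B the order was CBFB at 28.6 ± 3.98, RUNX2 at 18.0 ± 6.42, RUNX3 at 12.5 ± 4.02 and RUNX1 at 9.44 ± 1.88 CPM per kb, and each overlapped its neighbor. In SW480-gRNA-B-all it was CBFB at 27.4 ± 0.820, RUNX3 at 5.37 ± 0.391, RUNX1 at 4.63 ± 0.0829 and RUNX2 at 2.43 ± 0.0555 CPM per kb, and no neighbors overlapped.

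The mean makeup of the RUNX RNA varied between the lines. No difference passed the exact permutation tests given below (smallest adjusted p = 0.136), in which p cannot go below 0.1. RUNX3 made up 69.4%, 55.0% and 51.2% of the summed RUNX RNA per kb in the SW480 libraries, 32.2%, 29.1% and 32.5% in SW480-B, and 44.8%, 43.3% and 41.5% in SW480-gRNA-B-all. RUNX2 made up 5.11%, 17.1% and 25.3% in SW480, 46.1%, 47.6% and 40.1% in SW480-B, and 19.2%, 19.5% and 19.9% in SW480-gRNA-B-all. RUNX1 made up 21.8% to 27.9% of the sum in the libraries of SW480 and SW480-B and 36.0% to 38.7% in SW480-gRNA-B-all. Per kb of exon, RUNX3 was the largest of the 3 in every SW480 and every SW480-gRNA-B-all library, and RUNX2 was in every SW480-B library. The order depended on this scale: in CPM not divided by length, RUNX1 was the largest in every SW480-gRNA-B-all library, every parental library and replicate 3 of SW480-B (123 CPM against 94.8 CPM of RUNX2).

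The RUNX2 share was 28.8 percentage points higher in SW480-B than in SW480 and fell by 25.05 points from SW480-B to SW480-gRNA-B-all (two-sided exact permutation test, p = 0.1 in both, the smallest that 3 against 3 libraries allow). From SW480 to SW480-gRNA-B-all it differed by 3.71 points (exact permutation test, p = 0.7), and without SW480 replicate 1 it was -1.65 points. The summed RUNX level was 48.7 ± 11.1, 40.0 ± 12.2 and 12.4 ± 0.452 CPM per kb in the lines in turn (SD, n = 3), and CBFB was 0.610 ± 0.240, 0.781 ± 0.328 and 2.21 ± 0.142 times that sum. The ratio was 0.364 to 1.11 in the libraries of SW480 and SW480-B and 2.04 to 2.30 in those of SW480-gRNA-B-all (exact permutation test, p = 0.1 against either line). Over the 15 tests of this kind, the smallest adjusted p was 0.136.

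**Figure D3:**
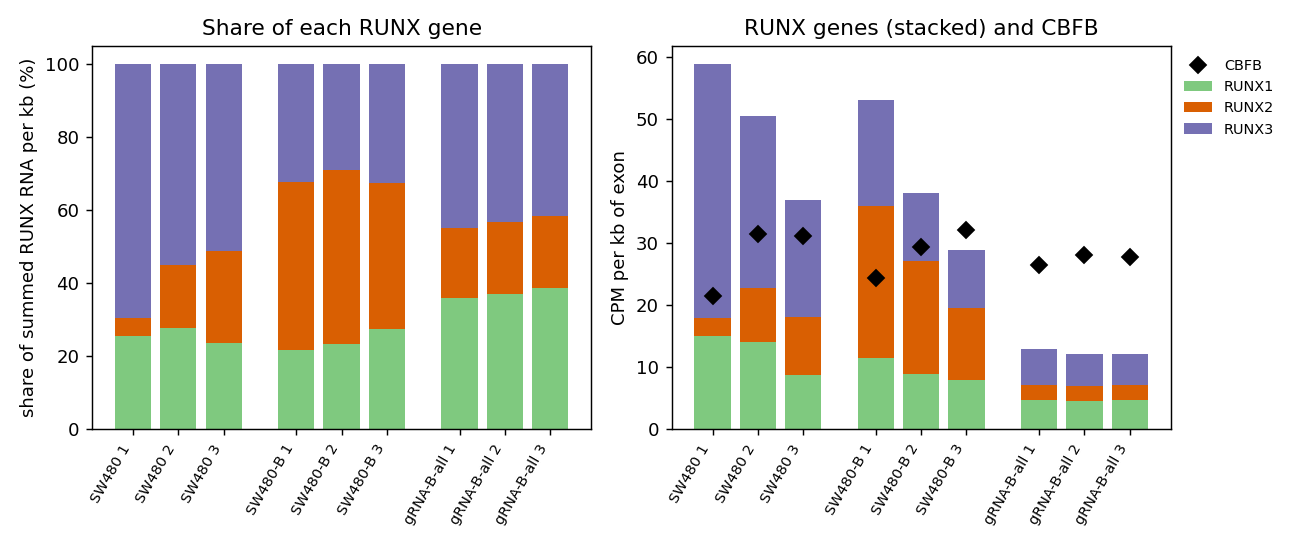
Left, the share (%) of RUNX1, RUNX2 and RUNX3 in their summed CPM per kb of exon in each library, and right, the same as stacked CPM per kb, with CBFB as diamonds. RUNX2 holds 40.1% to 47.6% of the sum in SW480-B, and CBFB exceeds the RUNX sum in each SW480-gRNA-B-all library.

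The genes around a member were read to see whether it moved alone or with its region. RUNX1 lies on chromosome 21 of GRCh37 from 36160098 to 37376965 (minus strand), and 62 tested genes start within 5 Mb of it. When SW480-gRNA-B-all was compared with SW480, 53 of the 62 lay below 0 on the log2 scale, with a median of -0.63, against a median of -0.05 over all tested genes. Against SW480-B, 53 of 61 were below 0, with a median of -0.48, and in SW480-B against SW480 the median was -0.06. RUNX1 was lower than the median of its region in both. The 9 tested genes within 500 kb had a median of -0.19 against SW480, with 7 below 0, and of -0.43 against SW480-B, with 9 below 0. In an edgeR fit chosen after seeing the data, each library had as an offset the median deviation, from their own means over the libraries, of the genes that start within 5 Mb of the member's start. In it RUNX1 was at -0.92 (adjusted p = 0.088) against SW480 and at -0.50 (adjusted p = 0.18) against SW480-B, and neither was called. Both calls of RUNX1 were thus lost with this offset.

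RUNX2 lies on chromosome 6 from 45295894 to 45632086 (plus strand), RUNX3 on chromosome 1 from 25226002 to 25291612 (minus strand) and CBFB on chromosome 16 from 67062887 to 67134961 (plus strand). The median of the genes within 5 Mb in SW480-gRNA-B-all against SW480 was 0.03 for RUNX2 (81 genes), 0.24 for RUNX3 (136 genes) and 0.13 for CBFB (110 genes). In the fit with the offset, RUNX2 was at -1.56 (adjusted p = 0.068) and RUNX3 at -2.75 (adjusted p = 0.011) against SW480, and at -3.003 (0.0014) and -1.42 (0.015) against SW480-B. In these comparisons RUNX2 and RUNX3 stayed on the same side of the call rule with this offset.

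Within 500 kb, no tested gene was called beside RUNX2 (5 genes) or RUNX3 (11 genes) in any comparison. Over all tested genes, 6.55% were called in SW480-gRNA-B-all against SW480, 1.34% in SW480-B against SW480 and 6.68% in SW480-gRNA-B-all against SW480-B. Beside RUNX1 (9 genes), the lncRNA CBR3-AS1 fell by 1.28 on the log2 scale from SW480-B to SW480-gRNA-B-all (adjusted p = 0.046). Beside CBFB, which has 33 tested neighbors in SW480-gRNA-B-all against SW480, CMTM3 (1.26, adjusted p = 0.032) and NOL3 (1.13, adjusted p = 0.034) were called higher and HSD11B2, which inactivates cortisol, lower (-1.86, adjusted p = 0.029). None of these 4 neighbors was called with the alike replicates summed (adjusted p = 0.13 to 0.20).

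Each RUNX gene lies beside a gene of the CLIC family of intracellular chloride channel proteins, an arrangement kept since the RUNX genes were duplicated. CLIC4, beside RUNX3, was at 336 ± 111, 473 ± 156 and 387 ± 105 CPM in the lines in turn (SD, n = 3). CLIC5, beside RUNX2, was at 5.35 ± 2.40, 5.74 ± 1.96 and 6.52 ± 1.81 CPM. Neither was called in any comparison (adjusted p = 0.52 to 0.92), and the ranges of the lines overlapped, unlike those of RUNX3 and RUNX2. CLIC6, beside RUNX1, had 25 counts in the SW480 libraries, 2 in SW480-B and 0 in SW480-gRNA-B-all, and was not tested.

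RUNX2 overlaps SUPT3H, a gene on the opposite strand that had 844, 535 and 679 counts in the lines in turn, where RUNX2 had 4869, 12021 and 1779. An lncRNA inside RUNX2 on the opposite strand, ENSG00000271857, had 77, 251 and 67 counts, and between the BASP1-expressing lines its log2 fold change of -2.05 was not called (adjusted p = 0.051). The strand setting of the counting is not given in the sources used here, so reads of RUNX2 and of this lncRNA may not be fully separated. RUNX2-AS1 had 0 counts and RUNX3-AS1 11 in all 9 libraries.

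Of 23 cofactors and regulators of RUNX proteins, 20 were tested. TLE1 to TLE4 are Groucho corepressors that bind the carboxy-terminal end of RUNX proteins. TLE3 fell from 249 ± 14.9 CPM in SW480 to 99.0 ± 9.52 CPM in SW480-gRNA-B-all (n = 3, log2 fold change -1.34, adjusted p = 0.0086), and HIPK2, a kinase that phosphorylates RUNX1 and its coactivators, fell by 1.45 (adjusted p = 0.042). TLE5, the short TLE protein also named AES, rose from 104 ± 28.0 to 220.2 ± 10.5 CPM (log2 fold change 1.07, adjusted p = 0.033). Thus 1 of 20 was called higher and 2 lower, beside 6.55% of all tested genes called in either direction, and the median was -0.08, against -0.05 over all genes. Against SW480-B, 2 of 20 were called (6.68% of all tested genes), both lower: TLE4 (-1.62, adjusted p = 0.0095) and HDAC4, a histone deacetylase known to bind RUNX2 (-1.01, adjusted p = 0.037). In SW480-B against SW480, edgeR called 0 of 20 (1.34% of all tested genes), with 6 at an unadjusted p under 0.05 (15.8%) and 2 called by DESeq2 (5.92%). With the alike replicates summed, 0 of 20 were called against SW480 and 1, TLE4, against SW480-B.

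The genes by which RUNX2 is known in bone were mostly at or near 0 counts in these cells, also in SW480-B, the line with the most RUNX2 RNA. Of 15 such genes, 3 or 4 passed the filter on low counts. IBSP had 0 counts, BGLAP 9, SPP1 4 and SP7 12 in all 9 libraries together. ALPL, alkaline phosphatase, was at 0.508 ± 0.316, 1.86 ± 1.12 and 0.146 ± 0.110 CPM in the lines in turn (SD, n = 3), and between the last 2 lines it fell by 3.64 on the log2 scale (adjusted p = 0.014). With all libraries apart, ALPL passed the filter only in comparisons with SW480-B, where it was highest. Once the alike replicates were summed it was also tested against SW480, and was not called (-1.58, adjusted p = 0.39). Its level in SW480-gRNA-B-all was close to what a count of 0 allows. COL1A1, which is also a fibroblast marker, rose from 4.03 ± 0.453 to 9.34 ± 1.40 CPM in SW480-gRNA-B-all against SW480 (log2 fold change 1.21, adjusted p = 0.036). ALPL was thus 1 of 4 tested genes called, beside 6.68% of all tested genes, and COL1A1 1 of 3, beside 6.55%. Neither gene was called with the alike replicates summed (adjusted p = 0.060 for ALPL and 0.16 for COL1A1). In SW480-B against SW480, edgeR called 0 of the 4 tested (1.34% of all tested genes), with 1 at an unadjusted p under 0.05 (15.8%) and 0 called by DESeq2 (5.92%).

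Of 16 genes known as targets of RUNX1 or RUNX3 in blood and epithelium, 9 were tested. BCL2L11, which encodes the proapoptotic protein BIM and is activated by RUNX3 in gastric cells, fell from 49.6 ± 14.2 to 23.9 ± 1.41 CPM in SW480-gRNA-B-all against SW480 (log2 fold change -1.06, adjusted p = 0.044), the only 1 of 9 called there, where 6.55% of all tested genes were. Against SW480-B, PRF1, which encodes perforin, fell by 1.23 (adjusted p = 0.017) and CD4 by 2.47 (adjusted p = 0.010), from 1.5 to 0.269 CPM, 2 of 9 called against 6.68% of all tested genes. CD4 was low in both lines and passed the filter in this comparison through SW480-B, where it was higher. With the alike replicates summed, 0 of 9 were called in either comparison (adjusted p = 0.16 for BCL2L11, 0.060 for PRF1 and 0.054 for CD4). CLDN1, a tight junction gene, had 136, 71.8 and 15.3 CPM in the lines in turn, with a standard deviation of 112 in SW480, and was not called (adjusted p = 0.11 against SW480). In SW480-B against SW480, edgeR called 0 of 9 (1.34% of all tested genes), with 1 at an unadjusted p under 0.05 (15.8%) and 0 called by DESeq2 (5.92%).

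Of 13 genes listed for a part in the regulation of RUNX2 in bone, 11 or 12 were tested, and those called were all lower. Against SW480, 5 of 11 were called lower in SW480-gRNA-B-all (the median over the tested genes was -2.04, against -0.05 over all genes, of which 6.55% were called): BMP2 (-3.93, adjusted p = 0.015) and BMP4 (-2.14, adjusted p = 0.013), ligands of the BMP pathway, DLX3 (-3.74, adjusted p = 0.0061) and MSX2 (-2.42, adjusted p = 0.016), homeobox factors downstream of it, and the growth factor FGF18 (-2.41, adjusted p = 0.015). In SW480-B against SW480, 3 of 12 were called lower, beside 1.34% of all tested genes called in either direction: BMP2 (-5.44, adjusted p = 0.016), DLX3 (-1.95, adjusted p = 0.026) and MSX2 (-1.89, adjusted p = 0.0499). Against SW480-B, SW480-gRNA-B-all had 4 of 12 called lower (6.68% of all tested genes were called in either direction): FGF18 (-2.56, adjusted p = 0.0060), DLX3 (-1.76, adjusted p = 0.022), IGF1 (-2.30, adjusted p = 0.032) and BMP4 (-1.06, adjusted p = 0.033). With the alike replicates summed, 1 of 12 was called lower against SW480 (DLX3, -3.63, adjusted p = 0.036) and 1 against SW480-B (FGF18, -2.48, adjusted p = 0.030). This list was chosen with earlier results of these data known, and its counts beside the shares of all genes are a description.

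The genes whose levels went most nearly with each member were found by Pearson's r of log2(CPM + 0.5) over the 9 libraries, among 13751 genes. The libraries fall into 3 lines, so such an r mostly carries the order of the lines and is given as a description. With RUNX1 they were MYO10, TARBP1, C21orf91, PROX1 and SYT8 (r = 0.981 to 0.992), and C21orf91 lies on the same chromosome. With RUNX2 they were CDK15, TBL1XR1, KANK4, RORA and MYO1D (r = 0.981 to 0.986). KANK4 had mean levels of 4.07, 23.1 and 0.0903 CPM and MYO1D of 456, 1016 and 245 CPM in the lines in turn.

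With RUNX3 the nearest were SEMA3F, PROX1, PROX1-AS1, ADAMTS19 and SNX10-AS1 (r = 0.983 to 0.990). PROX1, a homeobox factor known from lymphatic vessels, had mean levels of 241, 47.6 and 4.68 CPM in the 3 lines. With CBFB they were GEMIN5, FAH, CERT1, EIF3B and MCM4 (r = 0.955 to 0.974), none of which differed between the lines by as much as 2-fold in its means. Among the members, r was 0.961 between RUNX1 and RUNX3, 0.548 between RUNX1 and RUNX2, and 0.369 between RUNX2 and RUNX3, over the same 9 libraries.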

How the data were processed

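Poly(A) RNA of 3 SW480 lines, 3 replicates each, was sequenced by the authors as stranded paired libraries and aligned to GRCh37 with the Ensembl annotation. The headers of accompanying metrics name STAR. They deposited whole-number counts per gene and library, without normalization, and the counting program is not given in the sources used here. Trailing lines that name no gene, for 5.23% to 9.93% (no feature) and 3.09% to 3.44% (ambiguous) of a library, were left out, and the metrics were not used. Symbols, positions and exons came from GENCODE 44 lifted to GRCh37, and 55665 identifiers had a symbol.

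Each pair of lines was tested over its own 6 libraries with edgeR 4.0.16 (filterByExpr with least count 10 and least total 15, TMM, robust glmQLFit, glmQLFTest). Standard errors are the log2 fold change over the square root of F. On simulated counts with 200 genes above 1 CPM changed 4-fold, 67%, 70.5% and 90% were recovered for SW480-gRNA-B-all against SW480, SW480-B against SW480 and SW480-gRNA-B-all against SW480-B, and 4.29%, 2.08% and 7.22% of the calls were false. Most differences of the members were smaller than this, and the simulated replicates held no alike pair. These rates therefore do not say how often such differences would be called. Shares were tested by exact permutation in scipy 1.17.1. Same-numbered libraries of SW480-B and SW480 correlated at 0.299, 0.341 and 0.404 in their deviations, and the labels do not say what a number marks. DESeq2 1.42.0 and the other alternatives are given at the end. The members and lists were chosen with earlier results of these data known. Genes were named by rule: BASP1, the members, the CLIC genes, neighbors within 500 kb by their extremes, up to 4 called genes per list, direction and comparison, and the 5 most alike per member with a mean of at least 1 CPM. MSX2 against SW480, CLDN1 and the bone genes given by counts were named after their values were seen.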

Additional observations from a re-analysis of the deposited data

Results flagged for a closer look

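The effects of the RUNX genes against SW480 differed between the lines by the test of SW480-gRNA-B-all against SW480-B itself, which is the test of that difference because SW480 is the same in both. The log2 fold change was -1.03 for RUNX1, -2.90 for RUNX2 and -1.22 for RUNX3 (edgeR, Benjamini-Hochberg adjusted p = 0.012, 0.0014 and 0.019). Each was lower in 3 of 3 libraries of SW480-gRNA-B-all than in any of SW480-B. The ranges of 30.4% of the tested genes did not overlap in this comparison, in either direction. RUNX2 was called in every fit listed under the processing, and RUNX1 and RUNX3 were not called once the alike replicates were summed (adjusted p = 0.074 and 0.089). RUNX1 was also not called with the offset for genes within 5 Mb (-0.50, adjusted p = 0.18). Leaving out 1 library ended the call of RUNX1 in 3 of 6 fits and that of RUNX3 in 4 of 6.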

How the results depend on the processing

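RUNX2 in SW480-gRNA-B-all against SW480-B was called under all alternatives. The log2 fold changes of RUNX1, RUNX2 and RUNX3 also kept their direction in each, but the RUNX2 share in SW480-gRNA-B-all less that in SW480 changed sign without SW480 replicate 1 (-1.65 points), and 1 library out or the alike replicates summed ended most calls of RUNX1 and RUNX3. Each line has 3 libraries, which limits what can pass, and the cause of each loss or gain was not tested.

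With the replicate number as a block, RUNX3 in SW480-B against SW480 was called (-1.16), and no other call of a member changed. It was also called with no filter on low counts (-1.20) and by DESeq2 (-1.20). RUNX2 in SW480-gRNA-B-all against SW480 was called with all 9 libraries in 1 fit (-1.53) and by DESeq2 (-1.50). With the offset for genes within 5 Mb, RUNX1 was not called against SW480 (-0.92) or SW480-B (-0.50). Once the alike replicates, 2 and 3 in SW480-gRNA-B-all, were summed, neither RUNX1 (-1.43 and -1.01) nor RUNX3 (-2.40 and -1.18) was called against SW480 or SW480-B. With no filter, CBFB against SW480 was 0.00014 in place of -0.04.

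With 1 library left out, SW480-gRNA-B-all against SW480 gave -1.63 to -1.29 for RUNX1, -1.88 to -1.26 for RUNX2, -2.65 to -2.12 for RUNX3 and -0.19 to 0.089 for CBFB. SW480-B against SW480 gave -1.47 to -0.87 for RUNX3 and -0.10 to 0.18 for CBFB. SW480-gRNA-B-all against SW480-B gave -1.14 to -0.86 for RUNX1, -1.39 to -0.93 for RUNX3 and -0.17 to 0.031 for CBFB. This RUNX2 share difference was -1.65 to 8.43 points.

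The number of genes called moved by more than 1.5 times. In SW480-gRNA-B-all against SW480 (1055) it was 2100 by DESeq2, 97 with the replicates summed and 8 (without SW480 replicate 2) to 2659 (without SW480 replicate 3) with 1 library left out. In SW480-B against SW480 (216) it was 735 with no filter, 143 with at least 1 CPM in 3 libraries, 452 with all 9 libraries, 953 by DESeq2 and 0 to 921 with 1 left out. In SW480-gRNA-B-all against SW480-B (1059) it was 654 with all 9 libraries, 446 with the replicates summed and 420 to 1548 with 1 left out.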
